A study of Mus musculus with 24 samples.

Results

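The secreted factors and hypoxia-inducible factors through which fat tissue acts on blood vessels were examined as a set of 9 genes, namely Vegfa, Vegfb, Vegfc, Angpt1, Angpt2, Angptl2, Angptl4, Hif1a and Epas1. They were taken by symbol from the 24825 gene rows of an RNA-seq series, and all 9 were found. Of these, 8 passed the filter on low values (FPKM of at least 1 in at least 3 of 24 libraries, which 12640 genes passed), and Angpt2 did not. FPKM is the read count scaled to gene length and to the library total.

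The cells were stromal vascular cells of the inguinal fat depot of mice with both Nfia alleles floxed, a mixed stromal preparation made immortal as a whole with SV40 large T antigen. All groups shared these alleles and the antigen, and differed in the retroviral vectors they had received. The ctrl cells carried an empty vector and Cre cells carried Cre recombinase. The remaining populations carried Cre with FLAG-tagged NFIA, either full-length (Cre + NFIA) or a deletion mutant (Cre + NFIA Δpro#3). The mutant lacked only pro#3, the C-terminal end of the proline-rich domain. Sampling the 4 populations in 3 replicates, before (day 0) and at day 7 of a thermogenic adipocyte protocol, gave 8 groups. Between these days all 4 populations were induced to differentiate with isobutylmethylxanthine, indomethacin, dexamethasone, insulin, T3 and rosiglitazone, an agonist of PPARγ. No population was sampled at day 7 without induction, so time in culture and induction cannot be told apart. It is not stated whether replicates were separate cultures, so p-values measure only the spread between these libraries.

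VEGF-A is the main growth signal for blood vessels and acts on endothelial cells through the receptor KDR, while VEGF-C acts mainly on lymphatic vessels through FLT4. Angiopoietins bind the receptor TEK, ANGPT1 as a stabilising agonist and ANGPT2 often as its antagonist, whereas angiopoietin-like proteins do not bind TEK. ANGPTL4 inhibits lipoprotein lipase, and its gene is a known PPARγ target in adipocytes. HIF-1α and EPAS1 (HIF-2α) are oxygen-regulated transcription factors whose protein, rather than mRNA, is controlled by oxygen, and Vegfa is one of their classical targets.

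Totals were 7.73 to 14.62 M reads per library (M, 1000000 reads), and a count of 3 reads, taken as the floor, was 0.205 to 0.388 reads per M. The floor covers counting error only, since reads carried no molecular identifiers, while the 95% intervals below come from limma and rest on the spread between libraries. Nfia, the targeted gene, did not fall in Cre-labelled libraries: it averaged 6.21 ± 0.773 FPKM there and 6.47 ± 0.264 FPKM in ctrl at day 0 (SD, n = 3, here and below), then 10.1 ± 0.588 against 9.55 ± 0.355 FPKM at day 7. Its gene-level value covers all exons, while Cre removes only exon 2, so it does not check the Cre label, on which the directions below rest. From assays that were not analysed here, the study reported efficient recombination by genomic PCR in Cre-expressing cells. It also reported an almost complete loss of NFIA there, in mRNA and in protein. With the transgenes, whose reads fall in the same gene-level value, Nfia was at 60.7 to 102 FPKM in group means. Of the 12 endothelial markers, 9 were under 1 FPKM in every library and 2 of them, Tie1 and Sox17, had no read in any; Pecam1 reached at most 19 reads and Cdh5 at most 3. The bulk libraries cannot tell fewer cells of a type from less RNA per cell.

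On the NCBIM37 assembly, which mm9 names, Vegfa lies on chromosome 17 from 46153942 to 46169326, and Angptl4 (33910695 to 33918520) and Epas1 (87153247 to 87232750) lie on the same chromosome. Vegfb is on chromosome 19 (7056963 to 7062141) and Vegfc on chromosome 8 (55162886 to 55271808), where Angpt2 also lies (18690263 to 18741562). Angpt1 is on chromosome 15 (42256273 to 42508523), Angptl2 on chromosome 2 (33071589 to 33103237) and Hif1a on chromosome 12 (75002362 to 75048517). All 9 are protein-coding genes, and the values are reads over the whole gene.

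Of the 8 tested members, Vegfc, Angptl2 and Hif1a were lower with full-length NFIA than in Cre-labelled libraries at day 7 (limma adjusted p under 0.05). Their promoters are shown for that reason. Angpt2, which was not tested in the main model, was also lower there but had no promoter entry. Each sequence is the 250 bases before the RefSeq gene start on GRCm38.p6, a different build from that of the gene positions above, 5′ to 3′ on the strand of the gene. Capitals mark TTGGC, the half-site that nuclear factor I proteins recognise, on either strand (GCCAA where it is on the other strand).
Angptl2, chr2:33215711-33215960, plus strand: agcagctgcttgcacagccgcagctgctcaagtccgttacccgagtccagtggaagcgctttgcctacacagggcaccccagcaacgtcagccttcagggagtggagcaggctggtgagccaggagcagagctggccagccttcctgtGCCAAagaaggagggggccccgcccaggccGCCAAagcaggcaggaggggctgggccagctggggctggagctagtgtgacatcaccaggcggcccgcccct
Hif1a, chr12:73907617-73907866, plus strand: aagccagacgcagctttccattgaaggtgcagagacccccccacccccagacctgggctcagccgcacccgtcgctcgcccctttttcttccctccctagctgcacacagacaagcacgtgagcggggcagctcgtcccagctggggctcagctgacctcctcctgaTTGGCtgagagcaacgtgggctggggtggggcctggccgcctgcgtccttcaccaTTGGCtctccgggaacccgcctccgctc
Vegfc, chr8:54077282-54077531, plus strand: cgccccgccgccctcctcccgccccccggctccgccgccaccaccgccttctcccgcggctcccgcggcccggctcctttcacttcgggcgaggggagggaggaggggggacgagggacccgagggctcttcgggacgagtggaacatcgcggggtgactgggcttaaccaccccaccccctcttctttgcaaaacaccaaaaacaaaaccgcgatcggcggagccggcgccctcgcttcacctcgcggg

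In the Angptl2 promoter TTGGC occurred 2 times, both on the minus strand, from 72 to 68 and from 102 to 98 bases before the start. In the Hif1a promoter it also occurred 2 times, from 28 to 24 and from 83 to 79 bases before the start, and both matches overlapped CCAAT on the opposite strand, the letters that nuclear factor Y recognises. The Vegfc promoter held 0 matches. Neither Vegfa promoter in the table nor the Vegfb promoter held TTGGC, so 2 of the 6 member promoters had it, and 41.5% of all 32851 promoters of this length did. The core letters of the hypoxia response element, ACGTG or GCGTG on either strand, matched 3 times in Hif1a, where 2 matches overlapped each other, 2 times in Vegfb and 2 times in one of the Vegfa promoters, and 38.6% of all promoters held them. A direct repeat of AGGTCA with 1 base between the copies, bound by PPARγ with RXR, was in 0 of the 6 and in 0.0335% of all. Angptl4, Angpt1, Angpt2 and Epas1 had no entry in the table.

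At day 7 Vegfc, Angptl2 and Hif1a were higher and Vegfa, Angptl4 and Epas1 lower in Cre-labelled libraries than in ctrl. That was 3 higher and 3 lower of the 8 tested at an adjusted p under 0.05 in limma, whose tests are two-sided. Of all genes tested 36.1% were higher and 22.7% lower in this comparison. Against Cre-labelled libraries, Cre + NFIA had Vegfa and Angptl4 higher and Vegfc, Angptl2 and Hif1a lower, 2 and 3 of 8, beside 27.0% higher and 35.9% lower of all genes. With the Δpro#3 mutant, Angptl2 was higher and Vegfa, Angptl4 and Epas1 were lower than in Cre-labelled libraries, 1 and 3 of 8, beside 7.70% and 10.0% of all genes. These 3 comparisons share the same Cre libraries. Between the mutant and full-length NFIA all 8 differed, with Vegfc, Angpt1, Angptl2 and Hif1a higher with the mutant and the other 4 lower, beside 40.4% higher and 28.9% lower of all genes. A change of at least 3-fold on the log2(FPKM + 1) scale, on which all log2 fold changes here are given, was reached by Angptl4 in Cre + NFIA against Cre (3.63% of all genes) and by Angptl4 and Angptl2 between mutant and full-length NFIA (6.92%). The median log2 fold change of the 8 members was -0.04 for Cre against ctrl, 0.08 for Cre + NFIA against Cre and -0.16 for the mutant against Cre, beside 0.09, -0.06 and 0.02 for all genes tested.

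**Figure D1:**
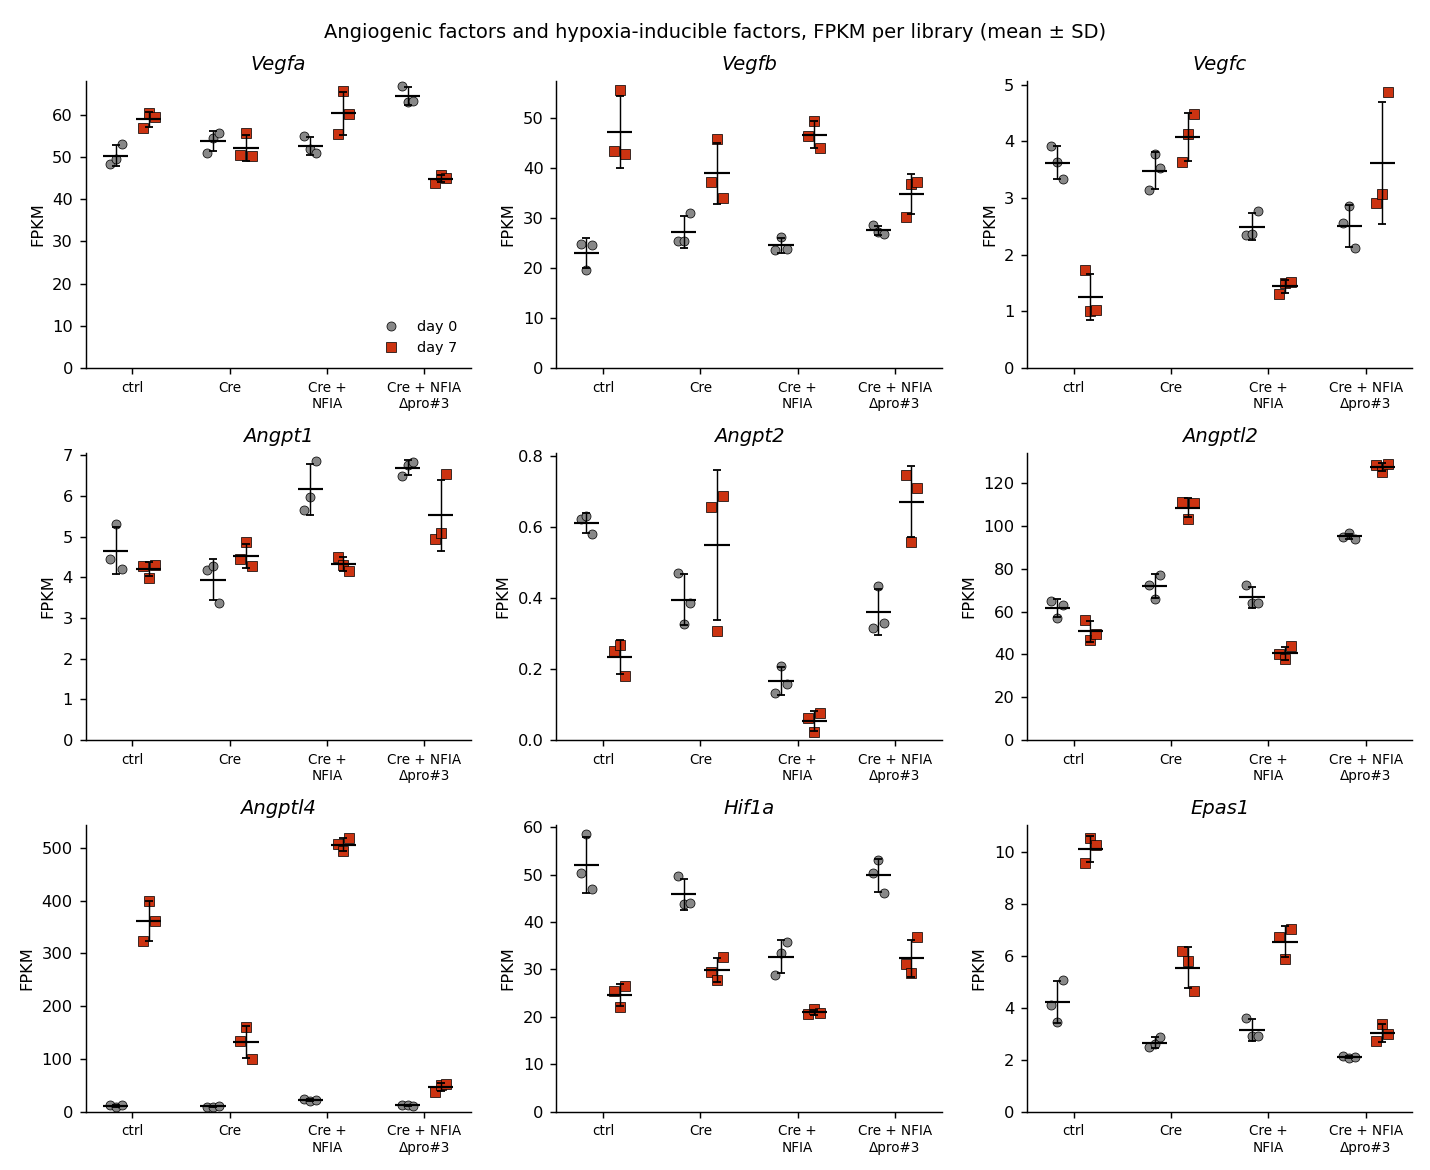
FPKM of each of the 9 genes (vertical axis, linear from 0) in the 24 libraries, with day 0 as grey circles and day 7 as red squares for each of the 4 populations; bars give the group mean ± SD (n = 3). Angptl4 spans 9.31 to 518 FPKM and at day 7 its 4 groups do not overlap, while Vegfa stays between 43.9 and 66.8 FPKM.

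**Figure D2:**
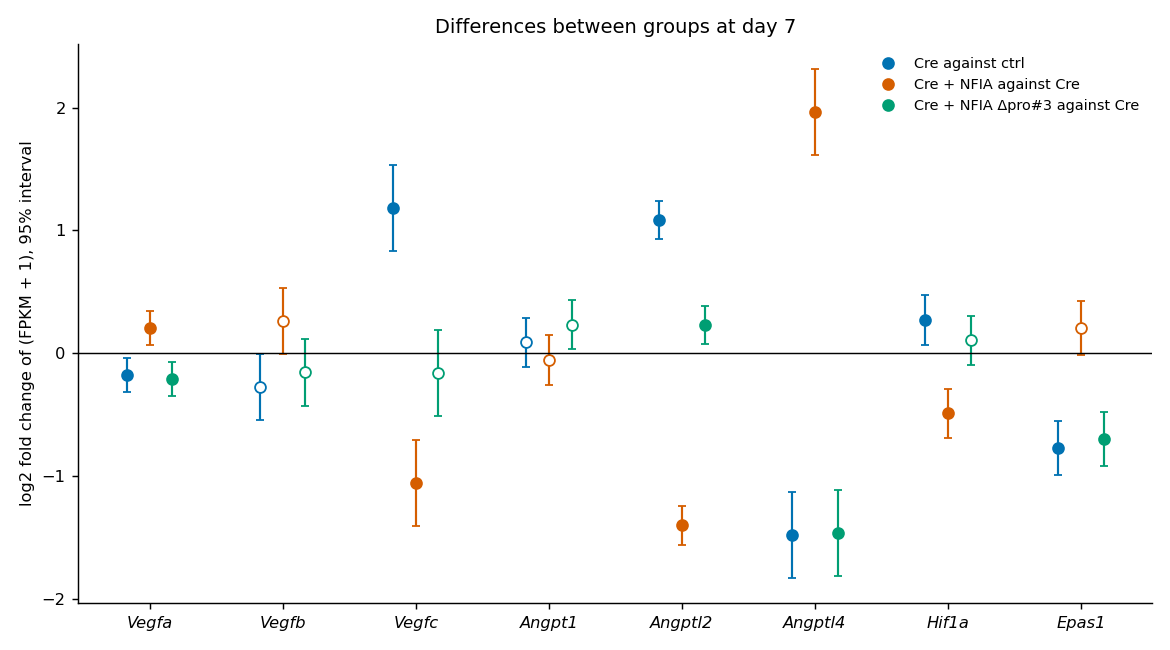
Log2 fold change of (FPKM + 1) at day 7 (vertical axis) for the 8 tested genes in 3 comparisons, with 95% intervals; filled points passed an adjusted p under 0.05 in limma and open points did not. Angptl2 and Vegfc are above 0 for Cre against ctrl and below 0 for Cre + NFIA against Cre, Angptl4 is the reverse, and in the mutant Angptl4 and Epas1 lie below 0.

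Angptl4, the lipoprotein lipase inhibitor, had the widest range of the 9 genes, with its highest library 55.6-fold above its lowest. Day 7 values were 324, 399.8 and 362 FPKM for the ctrl replicates, against 134, 161 and 100.2 FPKM in Cre-labelled libraries. The Cre + NFIA replicates held 506, 493 and 518 FPKM and the mutant replicates 37.3, 51.2 and 52.0 FPKM. No 2 of these groups overlapped, and the order was Cre + NFIA, ctrl, Cre and mutant. Between Cre and ctrl the mean was 2.75-fold lower (log2 change -1.47, SE 0.16, limma adjusted p = 1.13e-05). In Cre + NFIA it was 3.85-fold higher than in Cre (1.96, SE 0.16, limma adjusted p = 7.25e-07), whereas with the mutant it was 2.81-fold lower than in Cre (-1.46, SE 0.16, limma adjusted p = 0.000357) and 10.8-fold lower than with full-length NFIA (-3.42, limma adjusted p = 7.4e-09).

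Before differentiation Angptl4 was at 12.02, 9.32 and 11.96 FPKM in ctrl, 9.31, 9.79 and 11.5 FPKM in Cre-labelled libraries and 12.9, 12.1 and 10.6 FPKM with the mutant, ranges that overlapped. The Cre + NFIA replicates held 23.5, 21.2 and 21.8 FPKM, above all 9 other libraries of that day and 2.17-fold above Cre (log2 change 1.05, SE 0.11, limma adjusted p = 4.73e-05). The mutant was 1.87-fold below full-length NFIA (-0.85, SE 0.11, limma adjusted p = 0.000458) and differed from Cre by 0.20 on the log2 scale (95% interval -0.04 to 0.44, limma adjusted p = 0.237). From day 0 to day 7 the mean rose 32.6-fold in ctrl, 12.9-fold in Cre, 22.8-fold in Cre + NFIA and 3.95-fold with the mutant, and all 4 rises passed the test (limma adjusted p at most 1.25e-09).

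Angptl2, which codes for a secreted angiopoietin-like protein linked to inflammation of fat tissue, had the opposite order at day 7. Values were 56.3, 46.6 and 49.5 FPKM in ctrl, against 111, 103 and 111 FPKM in Cre-labelled libraries. The Cre + NFIA replicates held 40.1, 37.8 and 43.8 FPKM and the mutant replicates 129, 125 and 129 FPKM. The 4 groups were again apart, with the mutant highest and Cre + NFIA lowest. Angptl2 was 2.14-fold higher in Cre than in ctrl (log2 change 1.08, SE 0.07, limma adjusted p = 5.57e-07), 2.68-fold lower in Cre + NFIA than in Cre (-1.40, SE 0.07, limma adjusted p = 2.55e-08) and 3.15-fold higher with the mutant than with full-length NFIA (1.63, SE 0.07, limma adjusted p = 5.34e-09). The mutant was 1.18-fold above Cre (0.23, SE 0.07, limma adjusted p = 0.0429), a call that was lost when any one of the 6 libraries compared was left out, with log2 fold changes of 0.20 to 0.25 and adjusted p of 0.0567 to 0.151.

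At day 0 the mutant already had the highest Angptl2, at 94.95, 96.5 and 93.9 FPKM against 72.2, 66.0 and 77.3 FPKM in Cre-labelled libraries (log2 change 0.40, SE 0.07, limma adjusted p = 0.0029). The ctrl libraries at 64.9, 57.1 and 63.2 FPKM and the Cre + NFIA libraries at 72.3, 63.9 and 63.8 FPKM also lay below the mutant. From day 0 to day 7 Angptl2 fell 1.22-fold in ctrl and 1.65-fold in Cre + NFIA. It rose 1.51-fold in Cre and 1.34-fold with the mutant. Each change passed the test (log2 changes of -0.28, -0.70, 0.59 and 0.42 in this order, limma adjusted p at most 0.00177).

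Vegfa had the narrowest range of the members, with its highest library 1.52-fold above its lowest. Day 7 values were 56.9, 60.5 and 59.3 FPKM in ctrl, 50.5, 55.6 and 50.1 FPKM in Cre-labelled libraries, 55.4, 65.5 and 60.1 FPKM in Cre + NFIA and 43.9, 45.6 and 45.0 FPKM with the mutant. The mutant libraries lay below all others of that day, and Cre + NFIA overlapped both ctrl and Cre. The change was -0.18 in Cre against ctrl (SE 0.06, limma adjusted p = 0.0305), 0.21 in Cre + NFIA against Cre (SE 0.06, limma adjusted p = 0.0129), -0.21 in the mutant against Cre (SE 0.06, limma adjusted p = 0.0392) and -0.42 in the mutant against full-length NFIA (SE 0.06, limma adjusted p = 8.41e-05). The first of these calls was lost without replicate 2 or 3 of ctrl or replicate 1 or 3 of Cre (-0.17 to -0.15, adjusted p 0.0738 to 0.0988) and under quantile normalization, which gave -0.11. The second was lost without replicate 2 of Cre + NFIA (0.15, adjusted p = 0.062), and the third without replicate 1 or 2 of Cre or any mutant replicate (-0.23 to -0.16, adjusted p 0.066 to 0.153).

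At day 0 the order of Vegfa was another one, with the mutant at 66.8, 62.9 and 63.3 FPKM above all other libraries of that day. The ctrl replicates were at 48.3, 49.5 and 53.0 FPKM, Cre-labelled libraries at 51.0, 54.4 and 55.6 FPKM and Cre + NFIA at 54.8, 51.9 and 50.9 FPKM, which overlapped. The mutant was 1.199-fold above Cre (log2 change 0.26, SE 0.05, limma adjusted p = 0.00543) and 1.22-fold above full-length NFIA (0.29, SE 0.05, limma adjusted p = 0.00374). During differentiation Vegfa rose 1.17-fold in ctrl and 1.15-fold in Cre + NFIA and fell 1.44-fold with the mutant (log2 changes of 0.23, 0.19 and -0.51, limma adjusted p = 0.00157, 0.00565 and 4.06e-07). In Cre-labelled libraries the change was -0.04 (95% interval -0.16 to 0.08, limma adjusted p = 0.554). Under quantile normalization the rises in ctrl and Cre + NFIA did not pass (0.07 and 0.10), and the rise in Cre + NFIA also did not pass without its day 7 replicate 2 (0.13, adjusted p = 0.0541).

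Vegfb, a VEGF family member linked to fatty acid uptake across endothelium, separated the days more than the populations. Day 7 libraries were at 43.4, 55.7 and 42.9 FPKM in ctrl, 37.2, 45.8 and 34.0 FPKM in Cre, 46.5, 49.5 and 44.1 FPKM in Cre + NFIA and 30.3, 36.9 and 37.3 FPKM with the mutant. Day 0 libraries were at 24.8, 19.7 and 24.7 FPKM in ctrl, 25.4, 25.4 and 30.9 FPKM in Cre, 23.6, 26.3 and 23.8 FPKM in Cre + NFIA and 28.6, 27.2 and 26.9 FPKM with the mutant. Within each population the days were apart, and the rise passed the test in all 4, 2.05-fold in ctrl, 1.43-fold in Cre, 1.90-fold in Cre + NFIA and 1.26-fold with the mutant (limma adjusted p = 1.35e-07, 0.00129, 6.61e-07 and 0.0325). The rise with the mutant was lost without any of its day 0 libraries or day 7 replicate 2 or 3 (log2 0.27 to 0.35, adjusted p 0.0501 to 0.123). Between populations at day 7 only mutant against full-length NFIA passed (-0.42, SE 0.12, limma adjusted p = 0.01). Cre against ctrl (-0.27, limma adjusted p = 0.0773) and Cre + NFIA against Cre (0.26, limma adjusted p = 0.0842) did not, although each passed without Cre replicate 2 (-0.39 and 0.38), under median-of-ratios scaling (-0.41 and 0.37) and with voom on the recovered reads.

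Vegfc, the lymphatic growth factor, was low, with 20 to 116 reads per library. Day 7 values were 1.73, 1.01 and 1.02 FPKM in ctrl, against 3.63, 4.12 and 4.48 FPKM in Cre-labelled libraries. Cre + NFIA held 1.31, 1.49 and 1.53 FPKM and the mutant 2.92, 3.08 and 4.86 FPKM. Thus ctrl and Cre + NFIA overlapped at a low level, Cre and the mutant overlapped at a higher one, and the pairs were apart. Vegfc was 3.25-fold higher in Cre than in ctrl (log2 change 1.18, SE 0.16, limma adjusted p = 6.1e-05), 2.83-fold lower in Cre + NFIA than in Cre (-1.05, SE 0.16, limma adjusted p = 0.000115) and 2.51-fold higher with the mutant than with full-length NFIA (0.90, SE 0.16, limma adjusted p = 0.00033). Between mutant and Cre the difference was -0.16 with a 95% interval of -0.51 to 0.19 (limma adjusted p = 0.556).

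Before differentiation ctrl held 3.91, 3.63 and 3.33 FPKM of Vegfc, against 3.14, 3.78 and 3.53 FPKM in Cre-labelled libraries. It was lower in both populations with an NFIA transgene, at 2.34, 2.37 and 2.78 FPKM in Cre + NFIA and 2.56, 2.86 and 2.12 FPKM with the mutant. The 6 libraries with a transgene lay below all 6 others, with changes against Cre of -0.36 (SE 0.10, limma adjusted p = 0.0193) and -0.35 (SE 0.10, limma adjusted p = 0.029). Each of these calls was lost without any of 4 single libraries, namely replicate 2 or 3 of Cre or replicate 1 or 2 of Cre + NFIA for the first (-0.35 to -0.31, adjusted p 0.0507 to 0.0673) and replicate 2 or 3 of Cre or replicate 1 or 3 of the mutant for the second (-0.37 to -0.27, adjusted p 0.0698 to 0.11). Between the days Vegfc fell 2.89-fold in ctrl and 1.73-fold in Cre + NFIA (limma adjusted p = 7.25e-07 and 0.0022). It changed by 0.18 on the log2 scale in Cre (95% interval -0.11 to 0.47) and rose 1.44-fold with the mutant (limma adjusted p = 0.0333). That rise rested on the library at 4.86 FPKM, without which it was 0.19 on the log2 scale (adjusted p = 0.265), and it was also lost without day 0 replicate 1 or 3 (0.39 and 0.29).

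Angpt1, the TEK agonist, differed more before differentiation than after it. Day 0 values were 4.46, 5.30 and 4.21 FPKM in ctrl, 4.17, 4.28 and 3.36 FPKM in Cre-labelled libraries, 5.65, 5.96 and 6.87 FPKM in Cre + NFIA and 6.49, 6.77 and 6.84 FPKM with the mutant. Both populations with an NFIA transgene lay above all ctrl and Cre libraries and overlapped each other. Against Cre they were 1.56-fold and 1.70-fold higher (log2 fold changes 0.54 and 0.64, SE 0.10 for both, limma adjusted p = 0.00256 and 0.00162), and the mutant differed from full-length NFIA by 0.11 (95% interval -0.12 to 0.33, limma adjusted p = 0.613). Day 7 values were 4.28, 3.995 and 4.30 FPKM in ctrl, 4.44, 4.86 and 4.28 FPKM in Cre, 4.502, 4.31 and 4.15 FPKM in Cre + NFIA and 4.94, 5.09 and 6.54 FPKM with the mutant. The first 3 groups overlapped, and Cre against ctrl was 0.09 with a 95% interval of -0.11 to 0.29. The mutant libraries lay above all 9 others at day 7, and the difference from full-length NFIA (0.29, SE 0.09, limma adjusted p = 0.0147) was lost without the library at 6.54 FPKM (0.18, adjusted p = 0.0564). Against Cre the mutant differed by 0.23 (95% interval 0.03 to 0.43, limma adjusted p = 0.106) and did not pass. During differentiation Angpt1 fell by 0.43 in Cre + NFIA (limma adjusted p = 0.000497) and by 0.25 with the mutant (limma adjusted p = 0.0446), the second call being lost without any day 0 mutant library or day 7 replicate 1 or 2 (-0.27 to -0.18).

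Angpt2, the context-dependent antagonist of TEK, had 1 to 32 reads per library and no test in the main model. Its values were 0.623, 0.631 and 0.579 FPKM in ctrl, 0.470, 0.327 and 0.387 FPKM in Cre-labelled libraries, 0.132, 0.208 and 0.157 FPKM in Cre + NFIA and 0.315, 0.434 and 0.3299 FPKM with the mutant at day 0. Day 7 values were 0.252, 0.268 and 0.179 FPKM in ctrl, 0.656, 0.307 and 0.687 FPKM in Cre, 0.0627, 0.0225 and 0.0768 FPKM in Cre + NFIA and 0.746, 0.557 and 0.709 FPKM with the mutant. Cre + NFIA, with 1 to 4 reads at day 7 and 5 to 7 at day 0, was below every other library of the same day. With no filter on low values, the log2 fold change at day 7 was 0.32 in Cre against ctrl, -0.55 in Cre + NFIA against Cre and 0.66 in the mutant against full-length NFIA (limma adjusted p = 0.0173, 0.000755 and 0.000167), and it was 0.12 in the mutant against Cre (limma adjusted p = 0.497). In that model Angpt2 was also lower in Cre + NFIA than in Cre at day 0 (-0.26, limma adjusted p = 0.00419).

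Hif1a fell during differentiation in every population. It went from 50.3, 58.6 and 47.0 FPKM at day 0 to 25.4, 22.0 and 26.5 FPKM at day 7 in ctrl, and from 49.7, 43.8 and 44.0 to 29.4, 27.7 and 32.6 FPKM in Cre-labelled libraries. In Cre + NFIA it went from 28.8, 33.4 and 35.7 to 20.6, 21.6 and 20.7 FPKM, and with the mutant from 50.3, 53.1 and 46.1 to 31.0, 29.2 and 36.8 FPKM. The days did not overlap in any population, and the mean fell 2.11-fold, 1.53-fold, 1.56-fold and 1.54-fold in this order (limma adjusted p = 5.05e-09, 3.04e-05, 1.15e-05 and 3.49e-05). Full-length NFIA had the lowest Hif1a on both days, 1.40-fold below Cre at day 0 (log2 change -0.48, SE 0.10, limma adjusted p = 0.00416) and 1.43-fold below it at day 7 (-0.49, SE 0.09, limma adjusted p = 0.000559). The mutant was above full-length NFIA by 0.60 and 0.59 on these days (limma adjusted p = 0.00249 and 9.73e-05), and its difference from Cre had 95% intervals of -0.10 to 0.33 and -0.09 to 0.31. Cre against ctrl at day 7 was 0.27 (SE 0.09, limma adjusted p = 0.023), a call lost with median-of-ratios size factors (0.14, adjusted p = 0.164) and without replicate 2 of ctrl or replicate 3 of Cre (0.20 and 0.21).

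Epas1, the HIF-2α gene, moved the other way and rose in all 4 populations. In ctrl it went from 4.09, 3.46 and 5.08 FPKM to 9.57, 10.5 and 10.2 FPKM, and in Cre-labelled libraries from 2.501, 2.61 and 2.88 to 6.17, 5.80 and 4.65 FPKM. In Cre + NFIA it went from 3.61, 2.91 and 2.91 to 6.72, 5.88 and 7.03 FPKM, and with the mutant from 2.14, 2.07 and 2.11 to 2.72, 3.38 and 2.99 FPKM. The mean rose 2.40-fold, 2.08-fold, 2.08-fold and 1.44-fold in this order (log2 changes of 1.10, 0.83, 0.87 and 0.37, limma adjusted p at most 0.00834), and the last did not pass under quantile normalization (0.19, adjusted p = 0.218). At day 7 ctrl lay above all other groups, Cre and Cre + NFIA overlapped in the middle, and the mutant lay below. Cre was 1.83-fold below ctrl (-0.77, SE 0.10, limma adjusted p = 4.39e-05) and the mutant was 1.83-fold below Cre (-0.69, SE 0.10, limma adjusted p = 0.000942). Cre + NFIA against Cre was 0.21 (95% interval -0.01 to 0.43, limma adjusted p = 0.0881) and did not pass. That call was gained with median-of-ratios size factors (0.30, adjusted p = 0.0245), under quantile normalization (0.32, adjusted p = 0.0235) and without Cre replicate 1 (0.28, adjusted p = 0.0449). Epas1 also carried the sole call of Cre against ctrl at day 0, described next.

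Before differentiation 1 of the 8 tested members passed in Cre against ctrl, Epas1, which was 1.58-fold lower (log2 change -0.50, SE 0.11, limma adjusted p = 0.0395), beside 1.63% of all genes higher and 1.70% lower. The call was lost without any one of 5 of the 6 libraries, namely ctrl replicate 1 or 3 or any Cre replicate (-0.54 to -0.38, adjusted p 0.0712 to 0.106). In Cre + NFIA against Cre at day 0, Angpt1 and Angptl4 were higher and Vegfc and Hif1a lower, 2 and 2 of 8 beside 14.7% and 12.9% of all genes. In the mutant against Cre, Vegfa, Angpt1 and Angptl2 were higher and Vegfc lower, 3 and 1 of 8 beside 9.26% and 9.02%. Between mutant and full-length NFIA, Vegfa, Angptl2 and Hif1a were higher and Angptl4 and Epas1 lower with the mutant, 3 and 2 of 8 beside 4.50% and 5.59%. The Epas1 call in the last comparison (-0.41, limma adjusted p = 0.0403) was lost without any one of the 6 libraries compared (-0.45 to -0.33, adjusted p 0.0692 to 0.132).

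Over differentiation 4 members rose and 3 fell in ctrl, beside 32.9% and 38.1% of all genes. In Cre-labelled libraries 4 rose and 1 fell, beside 30.0% and 21.6%. In Cre + NFIA 4 rose and 4 fell, beside 31.8% and 38.3%, and with the mutant 5 rose and 3 fell, beside 24.5% and 17.0%. A change of at least 3-fold was reached by Angptl4 alone in each population, where 8.50%, 2.73%, 9.08% and 1.46% of all genes reached it in the same order. The count of 8 with the mutant fell to 5 without its day 0 replicate 1 or 3, through the Vegfb, Vegfc and Angpt1 calls described above. Whether a difference between populations was itself another at day 7 than at day 0 was tested with an interaction term. For Cre against ctrl 3 members had a positive and 3 a negative term (29.7% and 19.5% of all genes), for Cre + NFIA against Cre 3 and 3 (18.8% and 30.1%), and for the mutant against Cre 0 and 4 (7.79% and 10.4%). The largest of them were those of Angptl4 with the mutant (-1.66, SE 0.20, limma adjusted p = 2.07e-05) and in Cre against ctrl (-1.37, SE 0.20, limma adjusted p = 1.3e-05).

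**Figure D3:**
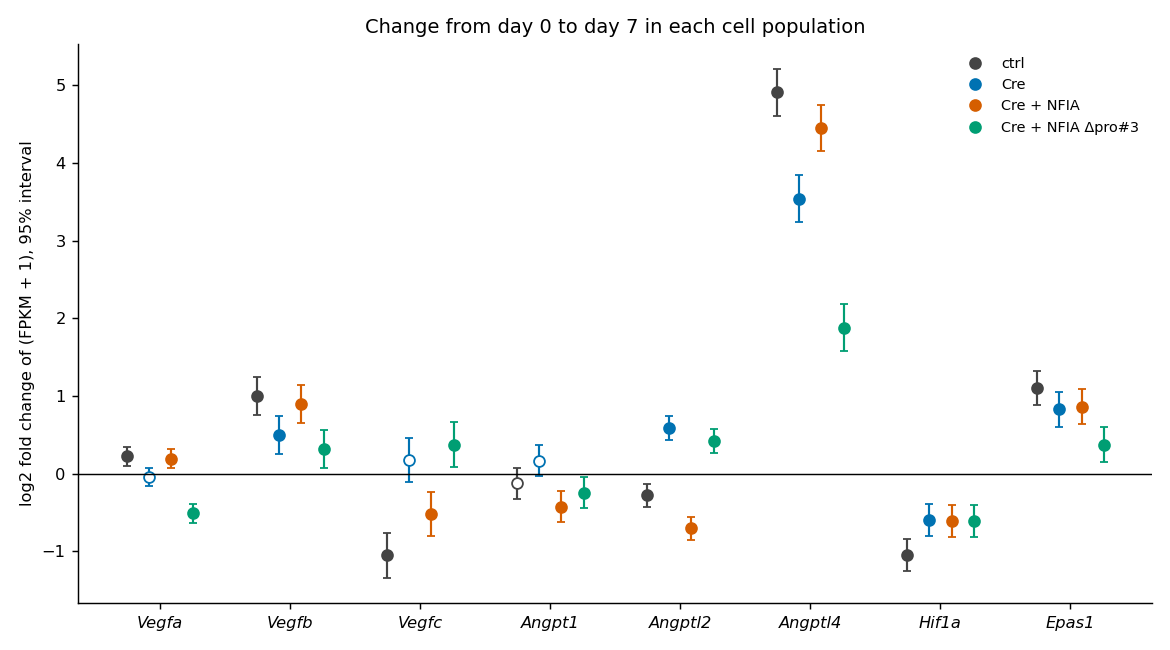
Log2 fold change of (FPKM + 1) from day 0 to day 7 (vertical axis) for the 8 tested genes in each of the 4 populations, with 95% intervals; filled points passed an adjusted p under 0.05 in limma and open points did not. Hif1a lies below 0 and Epas1, Vegfb and Angptl4 above 0 in all 4 populations, and the rise of Angptl4 goes from 4.91 in ctrl to 1.88 with the mutant.

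Adipocyte markers moved with several of these results. The summed FPKM of 7 markers (Adipoq, Plin1, Fabp4, Cidec, Pparg, Cebpa and Lipe) was 27.6 to 52.0 over the day 0 libraries. The day 7 sums were 20022 to 23499 in ctrl, 3844 to 8522 in Cre-labelled libraries, 18690 to 18863 in Cre + NFIA and 651 to 1794 with the mutant. These day 7 sums came mostly from Fabp4, with group means of 17544, 4963, 14618 and 1042 FPKM in this order. At day 7 all 7 were lower in Cre than in ctrl, higher in Cre + NFIA than in Cre and lower with the mutant than in Cre. Under quantile normalization 6 of the 7 passed in the first and second of these. All 20 genes of a list of PPARγ target and adipocyte genes, which includes these 7 markers, moved in the same directions. Their medians were -1.83, 1.79 and -2.02, and 19, 19 and 20 passed under quantile normalization. Of all genes tested 22.7% were lower, 27.0% higher and 10.0% lower in the same order. Pck1, the enzyme that commits carbon to glyceroneogenesis, rose by 3.43 in Cre + NFIA against Cre, the adipokine gene Retn by 2.92 and Dgat2, which makes triglyceride, by 2.58 (limma adjusted p at most 1.77e-05). The part of these markers in the changes of Angptl4, Angptl2, Hif1a and the other members was not tested. At day 0, where the marker sum in Cre + NFIA was 51.2 to 52.0 and in the other 9 libraries 27.6 to 45.3, Angptl4 was also highest in Cre + NFIA. The single markers differed, as Adipoq, Plin1, Pparg and Cebpa had their highest day 0 mean in Cre + NFIA. Fabp4 (26.3 FPKM against 18.2 in Cre + NFIA) and Cidec were highest with the mutant and Lipe in ctrl.

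**Figure D4:**
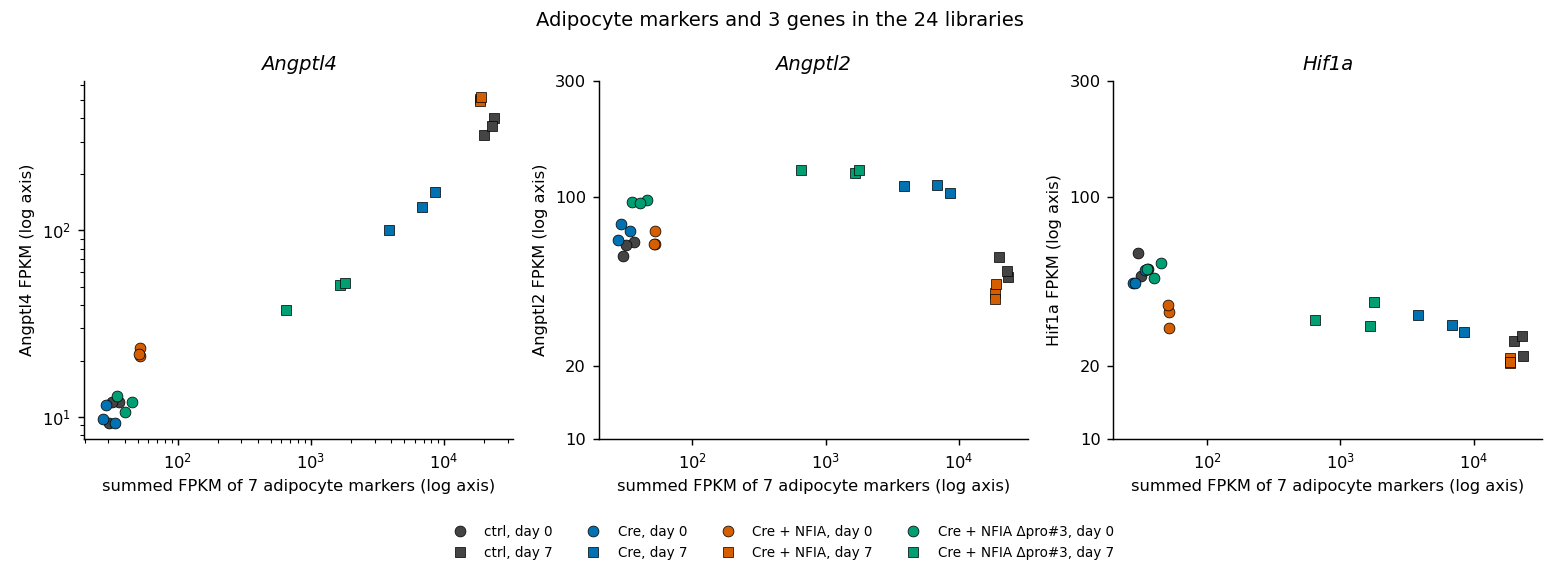
FPKM of Angptl4, Angptl2 and Hif1a (vertical, log axes) against the summed FPKM of 7 adipocyte markers (horizontal, log axis) in the 24 libraries, with circles for day 0, squares for day 7 and a colour for each population. At day 7 the mutant libraries lie at sums of 651 to 1794 with Angptl4 at 37.3 to 52.0 FPKM, and the Cre + NFIA libraries at 18690 to 18863 with 493 to 518 FPKM. The day 7 sums come mostly from Fabp4.

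Markers of the other cell types that such a preparation can hold were counted in the same way. The 12 endothelial markers summed to 3.59 to 11.8 FPKM over the libraries, mostly from Tek, Kdr and Egfl7, which were the 3 tested. At day 7 of these 3, 2 were higher and 0 lower in Cre than in ctrl, 1 and 1 in Cre + NFIA against Cre and 2 and 1 in the mutant against Cre. The shares of all genes were 36.1% higher and 22.7% lower, 27.0% and 35.9%, and 7.70% and 10.0% in this order. The 7 pericyte markers summed to 68.8 to 120 FPKM, with Kcnj8 at no read in any library and Abcc9 at 1 at most; of the 4 tested, 2 were higher and 2 lower in Cre against ctrl, 2 and 2 in Cre + NFIA against Cre and 0 and 1 with the mutant against Cre. The 7 macrophage and leukocyte markers summed to 5.93 to 22.1 FPKM, with Adgre1 at no read and Ptprc at 1 at most; of the 4 tested, 2 were higher and 0 lower, 0 and 2, and 2 and 0 in the same order. The 7 stromal precursor markers, whose sums came mostly from Ly6a and Col1a1, summed to 2882 to 3299 FPKM at day 0. At day 7 they summed to 871 to 949 in ctrl, 1820 to 2075 in Cre, 792 to 886 in Cre + NFIA and 1968 to 2336 with the mutant, and of the 6 tested 5 were higher and 1 lower, 0 and 5, and 1 and 0 in the same 3 comparisons. These sums moved with the levels of Angptl2 and Vegfc at day 7, and their part was not tested.

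The receptors that these ligands bind were present unevenly. Tie1 had no read in any library, and Flt4, the VEGF-C receptor, was at 0.0356 to 0.212 FPKM in group means. Flt1 was at 0.207 ± 0.0644 FPKM in ctrl, 0.364 ± 0.0578 in Cre-labelled libraries, 1.07 ± 0.134 in Cre + NFIA and 0.475 ± 0.169 with the mutant at day 7, and rose by 0.60 in Cre + NFIA against Cre (limma adjusted p = 0.000607). Kdr, the main receptor of VEGF-A, was at 0.304 ± 0.0863, 0.741 ± 0.0758, 1.21 ± 0.258 and 3.50 ± 0.2197 FPKM in these groups. It was thus highest with the mutant, by 1.37 on the log2 scale over Cre (limma adjusted p = 8.17e-05), and at day 0 it was at 0.970 ± 0.318 FPKM in ctrl, 0.991 ± 0.0682 in Cre, 3.52 ± 0.335 in Cre + NFIA and 3.22 ± 0.0505 with the mutant. Tek, the angiopoietin receptor, was at 1.10 ± 0.190, 1.88 ± 0.1704, 0.728 ± 0.0380 and 1.22 ± 0.150 FPKM at day 7, higher in Cre than in ctrl by 0.45 and lower in Cre + NFIA than in Cre by -0.74 (limma adjusted p = 0.0019 and 4.3e-05). The co-receptors were the abundant ones. Nrp1 was at 32.0 ± 1.79, 28.4 ± 0.799, 39.9 ± 0.801 and 22.3 ± 2.56 FPKM at day 7 and rose by 0.47 in Cre + NFIA against Cre (limma adjusted p = 0.000118). Nrp2, which also binds VEGF-C, was at 10.2 ± 1.25, 18.8 ± 2.21, 8.56 ± 0.655 and 31.9 ± 2.93 FPKM, and it was lower by -1.05 in Cre + NFIA than in Cre and higher by 0.73 with the mutant than in Cre (limma adjusted p = 2.95e-06 and 0.000838). Of the 5 receptors tested, 3 were higher and 0 lower in Cre against ctrl, 3 and 2 in Cre + NFIA against Cre and 2 and 2 in the mutant against Cre, and both other scalings, median-of-ratios and quantile, added 1 lower receptor to the first. The shares of all genes were 36.1% higher and 22.7% lower, 27.0% and 35.9%, and 7.70% and 10.0% in the same order.

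Other ligands of these families also differed at day 7. Vegfd, the second lymphatic VEGF, was at 68.9 ± 10.7 FPKM in ctrl, 178 ± 14.6 in Cre-labelled libraries, 48.4 ± 2.75 in Cre + NFIA and 216 ± 15.6 with the mutant at day 7, well above Vegfc on this per-length scale. It rose by 1.37 in Cre against ctrl and fell by 1.86 in Cre + NFIA against Cre (limma adjusted p = 1.12e-06 and 4.26e-08). Angptl8, an adipocyte and liver partner of angiopoietin-like proteins, was at 32.1 ± 7.54, 3.31 ± 2.30, 31.8 ± 1.01 and 0.812 ± 0.442 FPKM in these groups and changed by -3.04 and 3.06 (limma adjusted p = 5.55e-06 and 3.04e-06). Angpt4, a further TEK ligand, was at 0.650 ± 0.358, 1.78 ± 0.334, 9.42 ± 0.401 and 2.48 ± 0.323 FPKM, and rose in both comparisons, by 0.77 and 1.91 (limma adjusted p = 0.000762 and 4.53e-07). Of the 8 ligands on this list 6 were tested, and 2 were higher and 2 lower in Cre against ctrl, 4 and 1 in Cre + NFIA against Cre, and 0 and 1 in the mutant against Cre. Their median in the first was 0.06 as deposited and below 0 under quantile normalization, which also gave 2 higher and 1 lower in the third. Over all genes tested 36.1% were higher and 22.7% lower in the first, 27.0% and 35.9% in the second, and 7.70% and 10.0% in the third.

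Of 16 other angiogenic growth factors 12 were tested. Over all genes tested 36.1% were higher and 22.7% lower in Cre against ctrl at day 7, 27.0% and 35.9% in Cre + NFIA against Cre, and 7.70% and 10.0% in the mutant against Cre. In Cre against ctrl 8 were higher and 0 lower, and in Cre + NFIA against Cre 1 was higher and 9 lower (medians 0.50 and -0.73), while with the mutant 3 were higher and 2 lower than in Cre. Fgf7, a keratinocyte growth factor, was at 20.1 ± 3.76 FPKM in ctrl, 42.9 ± 3.72 in Cre-labelled libraries, 12.3 ± 0.601 in Cre + NFIA and 56.0 ± 6.32 with the mutant. Ctgf, a matricellular protein gene, fell by 1.89 in Cre + NFIA against Cre, Fgf7 by 1.72 and Adm, which codes for the vasodilator adrenomedullin, by 1.55 (limma adjusted p at most 9.24e-07). Of 9 angiogenesis inhibitors 7 were tested, and 5 were higher and 0 lower in Cre against ctrl, 1 and 5 in Cre + NFIA against Cre and 1 and 1 in the mutant against Cre, with medians of 0.51, -0.92 and -0.06. The thrombospondin genes Thbs1 and Thbs2 fell by 1.87 and 1.95 in Cre + NFIA against Cre (limma adjusted p = 8.02e-08 and 3.03e-08), and Col18a1, the source of endostatin, rose by 1.23 in Cre against ctrl (limma adjusted p = 7.31e-07).

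Genes of the HIF lists moved in both directions. The list of partners and regulators holds both partners of HIF-α and enzymes that mark it for degradation, so its counts give no pathway direction. Of 12 partners and regulators 11 were tested, with 2 higher and 4 lower in Cre against ctrl (36.1% and 22.7% of all genes), 6 and 2 in Cre + NFIA against Cre (27.0% and 35.9%) and 0 and 2 in the mutant against Cre (7.70% and 10.0%). The 4 lower in the first became 6 under median-of-ratios and 5 under quantile scaling, and the 6 higher in the second became 5 under quantile scaling. Egln3, a prolyl hydroxylase that marks HIF-α for degradation, was at 15.7 ± 1.84 FPKM in ctrl, 7.05 ± 1.52 in Cre-labelled libraries, 27.1 ± 5.52 in Cre + NFIA and 3.66 ± 0.487 with the mutant at day 7, an order shared with Angptl4. It rose by 1.80 in Cre + NFIA against Cre (limma adjusted p = 1.37e-06), while Arnt2, a dimerisation partner of HIF-α, fell by 1.11 there (limma adjusted p = 2.35e-06) and Ubqln1, which codes for a ubiquitin-like adaptor, changed by -0.63 in Cre against ctrl (limma adjusted p = 0.000295). Of 24 HIF target genes 22 were tested, with 11 higher and 7 lower in Cre against ctrl, 10 and 10 in Cre + NFIA against Cre and 6 and 3 in the mutant against Cre (medians 0.38, 0.02 and 0.14). Bnip3, a mitophagy receptor gene, rose by 1.75 in Cre + NFIA against Cre, whereas the hexokinase gene Hk1 fell by 1.37 and P4ha2, a collagen prolyl hydroxylase gene, by 1.32 (limma adjusted p = 3.39e-07, 1.47e-08 and 3.08e-08). With median-of-ratios size factors the targets were 5 higher and 5 lower in the mutant against Cre.

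**Figure D5:**
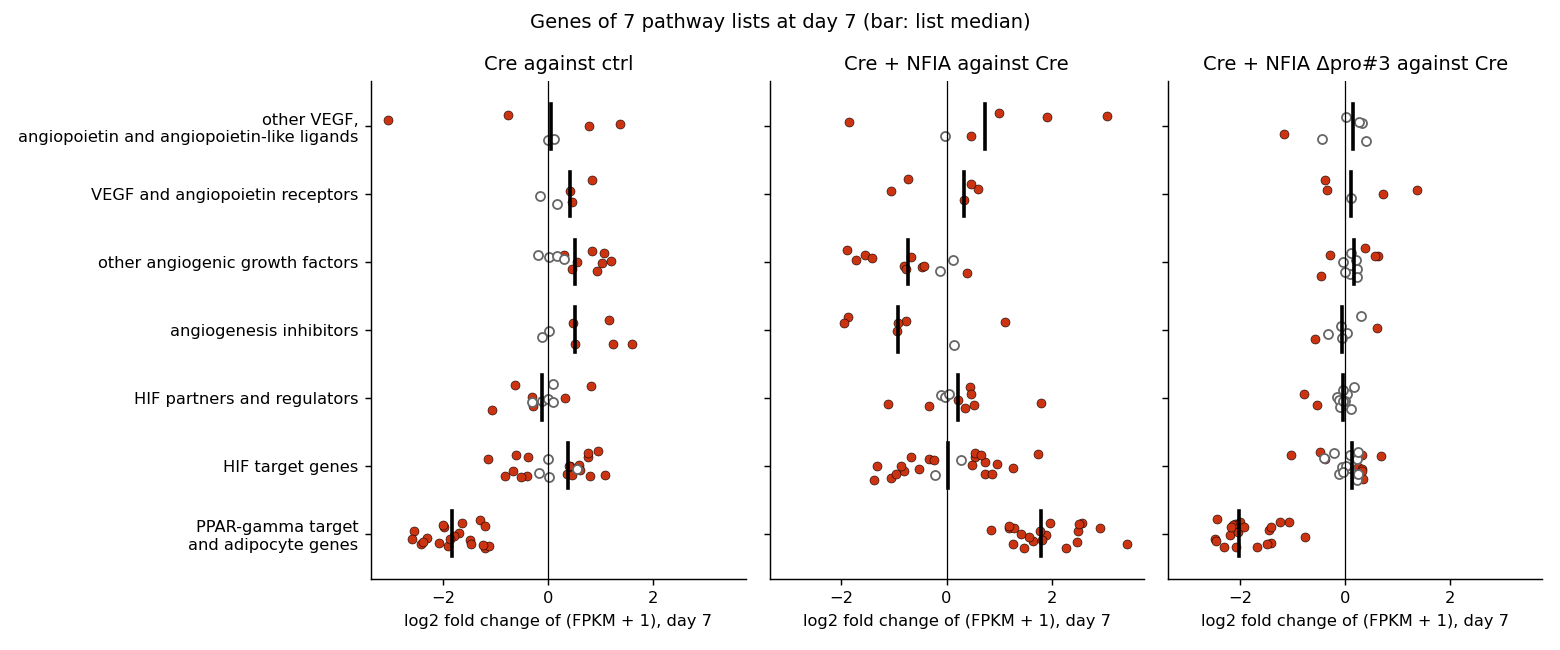
Log2 fold change of (FPKM + 1) at day 7 (horizontal axis) of each tested gene of 7 lists (rows) in 3 comparisons, with filled points for genes that passed an adjusted p under 0.05 in limma, open points for the others and a bar at the list median. The PPARγ target and adipocyte genes lie on one side of 0 in each comparison (medians -1.83, 1.79 and -2.02), while HIF targets lie on both sides.

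Likeness of pattern was described by Pearson's r of log2(FPKM + 1) over the 24 libraries, which share days, populations and scaling and fall into 2 clusters by day, so no p is given. Angptl4 was closest to Fitm2 (r = 0.995), Tex2 (0.993) and Reep5 (0.992). Angptl2 was closest to Snx9 (0.964), Klhl26 (0.958) and Akt1 (0.956), and Vegfc to Ralgds (0.933), Rcbtb1 (0.931) and Ptpdc1 (0.931). Vegfb was closest to Tesk1 (0.961), BC031181 (0.958) and Mgat4b (0.957), Hif1a to Srsf11 (0.966), Shox2 (0.966) and Pla2g4a (0.964), and Epas1 to Slc43a1 (0.946), Klhl5 (0.942) and Itih4 (0.939). The closest genes were less alike for Vegfa, namely Pfkl (0.924), Dus1l (0.831) and Gys1 (0.819), and for Angpt1, namely Fam111a (0.846), Mcm10 (0.829) and Cct8 (0.829). Pfkl codes for the liver isoform of phosphofructokinase and Gys1 for muscle glycogen synthase, and at day 7 Pfkl was at 105 ± 7.44 FPKM in ctrl, 77.2 ± 3.50 in Cre-labelled libraries, 104 ± 10.1 in Cre + NFIA and 68.6 ± 3.81 with the mutant. Between members r was 0.920 for Angptl4 with Vegfb and 0.855 with Epas1, -0.923 for Angptl4 with Hif1a, 0.704 for Angptl2 with Vegfc, and 0.022 for Vegfa with Angpt1.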

How the data were processed

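The authors sequenced 24 libraries of polyadenylated RNA (stranded TruSeq kit). They aligned reads to mm9 with STAR 2.5.3a, kept unique alignments, counted reads on the matching strand of each gene and deposited FPKM, which is that count divided by gene length in kilobases and by the library total in M (1000000 reads). Each value came out as a whole multiple of 1 read within 0.05 read for 100% of values, which gave library totals (7.73 to 14.62 M) and reads per gene.

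A pseudocount of 1 was added to FPKM and log2 taken, which understates the change of low genes. The 12640 genes that reached an FPKM of 1 in 3 or more libraries entered linear models in limma 3.58.1 (R 4.3.3) with a mean-variance trend, all 12 libraries of a day for comparisons within it and all 24 for comparisons across days and interactions. A gene passed at a Benjamini-Hochberg adjusted p under 0.05 over all genes tested, and changes of at least 3-fold are counted beside it. The procedure was tested on simulated data for Cre against ctrl at day 7 only, with planted changes larger than most member changes here. That test did not cover smaller changes, comparisons across days or interactions.

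The 9 members and the lists were chosen with earlier results of these data known, so p-values are over all genes and none is given for a list. Named list genes are the up to 3 per list with the largest change among those that passed at day 7 in Cre against ctrl or Cre + NFIA against Cre, all receptors, and for each tested member the 3 genes most alike. The symbol column held 26 rows that read as dates and 2 repeated symbols, which were not named.

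Positions count from 1 and come from the GENCODE vM1 annotation of NCBIM37. Promoters are from RefSeq on GRCm38.p6, where 5 of the 9 members had one or more (6 promoters). Replicate numbers come from the titles. Replicates of a group differed by more than sampling noise in all 24 pairs (chi-square per degree of freedom 2.21 to 15.91), so no library was counted as a repeat. Alternatives were pseudocounts of 0.1 and 5, no filter, a filter at a mean FPKM of 5, scaling by median-of-ratios or quantiles, only the groups compared or all 24 libraries in the model, the replicate number as a block, limma without trend, voom on the recovered reads and each library left out in turn.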

Additional observations from a re-analysis of the deposited data

Results flagged for a closer look

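In 16 cases over the 8 tested members, a comparison between populations gave another value at day 7 than at day 0. The test was the limma interaction term on all 24 libraries (log2 scale, day 7 minus day 0). For Cre against ctrl 6 of 8 members passed, beside 29.7% of all genes with a positive and 19.5% with a negative term. These shares were 18.8% and 30.1% for Cre + NFIA against Cre (6 of 8 members). For the mutant against Cre they were 7.79% and 10.4% (4 of 8 members). For Cre against ctrl the difference grew in favour of Cre for Vegfc (1.23, adjusted p = 2.82e-05), Angptl2 (0.87, adjusted p = 9.77e-07) and Hif1a (0.45, adjusted p = 0.0112). It moved against Cre for Angptl4 (-1.37, adjusted p = 1.3e-05), Vegfb (-0.51, adjusted p = 0.015) and Vegfa (-0.27, adjusted p = 0.00968). The Vegfb call was lost in 4 of 22 alternatives, the Vegfa call in 1 of 22 and the other calls of this comparison in 0.

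For Cre + NFIA against Cre the terms of Angptl4 (0.91, adjusted p = 0.000799), Vegfb (0.40, adjusted p = 0.0492) and Vegfa (0.24, adjusted p = 0.0213) were positive in limma. Those of Angptl2 (-1.29, adjusted p = 3.33e-09), Vegfc (-0.70, adjusted p = 0.00526) and Angpt1 (-0.59, adjusted p = 0.00108) were negative. The Vegfb call was lost in 11 of 22 alternatives, the Vegfa call in 6 of 22 and the other calls of this comparison in 0. Angpt1 in Cre + NFIA was 1.56-fold above Cre at day 0 and overlapped Cre at day 7. For the mutant against Cre the terms were negative for Angptl4 (-1.66, adjusted p = 2.07e-05), Vegfa (-0.47, adjusted p = 0.000484), Epas1 (-0.46, adjusted p = 0.0412) and Angpt1 (-0.41, adjusted p = 0.0392). Of these, the Epas1 call was lost in 16 of 21 alternatives and the Angpt1 call in 11 of 22. The Angptl4 and Vegfa calls were each lost in 0 of 22. The mutant had Vegfa 1.199-fold above Cre at day 0 and 1.16-fold below it at day 7. The comparisons of Cre + NFIA and of the mutant share the Cre libraries, which also enter Cre against ctrl.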

How the results depend on the processing

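Over 8 members and 15 comparisons (120 results, of which 81 passed), 2098 values were computed under the alternatives. None reversed the direction of a result that passed, 1946 kept their side of the threshold, 137 lost a call and 15 gained one, and 93 results changed their call under no alternative. The number of members that passed in the mutant against Cre at day 7 was 4, and 2 with no filter or without the trend (2 to 3 with a library left out). In Cre against ctrl at day 0 it was 1, that of Epas1. It was 0 with no filter, median-of-ratios or quantile scaling, only the groups compared, or the replicate block (0 to 1 with a library left out). It was also 0 with a filter at a mean FPKM of 5, which left Epas1 untested. Over differentiation with the mutant it was 8, and 5 to 7 with a library left out. In the interaction of the mutant against Cre it was 4, and 2 with no filter, only the groups compared, or the replicate block (2 to 4 with a library left out), since Angpt1 and Epas1 lost the call. The cause was not tested.

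With the replicate number as a block, 113 of 120 member results kept their call, 5 lost it and 2 gained it (Vegfb at day 7 in Cre against ctrl, adjusted p = 0.0201, and in Cre + NFIA against Cre, adjusted p = 0.0223, in limma). The 36 correlations of same-numbered libraries' deviations ran from -0.274 to 0.201, and 0 of 12 comparisons had every pair above 0.1 or every library closest to its own number, so the numbers were not taken to pair samples. Interaction calls were lost without single libraries for Vegfa (0.18 to 0.21 without any of 5) and Vegfb (0.31 to 0.40 without any of 7) in Cre + NFIA against Cre, Vegfb in Cre against ctrl (-0.42 to -0.39 without any of 3), and Angpt1 (8 libraries) and Epas1 (9 libraries) in the mutant against Cre. Epas1 in Cre against ctrl gained one without ctrl day 0 replicate 3 (-0.39).

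Scaling moved the balance over all genes. With median-of-ratios size factors the median moved by -0.11 (Cre against ctrl) and -0.10 (mutant against full-length NFIA) at day 7, and by -0.11 and 0.11 in the Cre against ctrl and Cre + NFIA against Cre interactions. The share of passed genes that were higher went from 61.41% to 46.26% and from 42.95% to 53.70% at day 7 in Cre against ctrl and Cre + NFIA against Cre, and from 60.30% to 46.31% and 38.46% to 52.01% in these interactions. With quantile scaling it went from 58.11% to 44.47% in Cre and from 59.10% to 48.56% with the mutant over differentiation. In Cre against ctrl at day 0, 421 genes passed (48.93% higher), 32 (18.75%) with only the groups compared, 636 with all libraries, and 175 to 222 (34.81% to 37.84%) without ctrl replicate 2 or Cre replicate 2 or 3, and the share was 59.78% with the filter at a mean FPKM of 5 and 38.76% and 35.78% under the scalings. In the mutant against Cre 2238 genes passed at day 7, 1226 with only the groups compared and 1309 to 1424 without Cre replicate 1 or 2 or mutant replicate 1, and at day 0 2311, and 1441 and 1484 without mutant replicate 1 or 3. Against full-length NFIA at day 0 1275 passed, and 842 and 845 without mutant replicate 1 or 3. Depth limited the values of Angpt2, which had 1 to 32 reads per library.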
